A study of Mus musculus with 8 samples.

Results

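Potassium channel genes were taken as the mouse genes whose symbol starts with *Kcn* and a letter, and their RNA was compared between fetal hearts with and without the type 3 deiodinase gene *Dio3*. The table held 95 such genes among 26590 gene symbols, and each gene was represented by the transcript row with the highest average of both genotypes. Of the 95, 37 had a mean above 1 RPKM (reads scaled for transcript length and for sequencing depth) in at least 1 genotype, and these were tested. Because the rule reads symbols, the 95 include *Kcnq1ot1*, an RNA antisense to *Kcnq1* that encodes no channel, and *Kcnrg*, a channel regulator.

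The samples were 4 *Dio3*+/+ and 4 *Dio3*-/- whole hearts of C57BL/6J fetuses, each from 1 animal and untreated. The *Dio3*-/- line carries the inactivated gene in the germ line, so every tissue lacks the enzyme. The titles give E13.5 for all 8 hearts, and the age field has E18.5 for hearts 3 and 4 of the *Dio3*-/- group. The study's Results give E13.5, but its Methods name a different age for the sequenced hearts, without singling out any. The age of all 8 hearts is therefore uncertain, and for those 2 the sample labels also conflict with each other. The table used here gives the mean and the coefficient of variation (CV, the SD divided by the mean) of each genotype and no value for a single heart. Results without hearts 3 and 4 could therefore not be calculated, and age and genotype cannot be told apart for them. The series text says that the hearts are male, whereas *Xist*, which is transcribed from an inactive X chromosome, was present in both genotypes (means of 35.64 and 39.97 RPKM, CV 0.99 and 0.55). So were 4 Y-linked genes, which summed to 22.82 and 15.98 RPKM with median CVs of 1.04 and 1.4. The sex of a single heart cannot be read from genotype means. *Dio3* itself was listed at 0.35 RPKM (CV 1.23) in *Dio3*+/+ and 0.13 RPKM (CV 0.76) in *Dio3*-/- hearts, too low to check the genotype labels.

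Type 3 deiodinase inactivates thyroid hormone, and fetuses without it are exposed to an excess of the hormone. Potassium channels set the resting potential of heart cells and end the action potential. Voltage-gated channels open on depolarization, inward rectifiers hold the resting potential or respond to ATP and acetylcholine, 2-pore domain channels carry background current, and calcium-activated channels follow intracellular calcium. Pore-forming subunits work with auxiliary subunits that change their gating or their delivery to the membrane. In postnatal rodent ventricle, thyroid hormone is known to favor the replacement of the Kv1.4 subunit by Kv4 subunits.

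The tissue carried the markers of heart muscle. *Tnnt2*, a troponin of cardiac sarcomeres, averaged 1212 RPKM in *Dio3*+/+ hearts and 1281 RPKM in the *Dio3*-/- group, and all 9 cardiomyocyte markers had the higher mean in *Dio3*-/- hearts, with a median log2 fold change of 0.24 and 1 of the 9 (*Ryr2*) past the test. Marker levels of other tissues differed too. The 7 skeletal muscle markers summed to 35.12 RPKM in *Dio3*+/+ hearts and 7.77 RPKM in the *Dio3*-/- group, with a median CV of 1.56 among *Dio3*+/+ hearts. The 10 liver markers summed to 24.11 and 126.63 RPKM, with all 10 higher in *Dio3*-/- hearts and median CVs of 0.89 and 1.04. The 7 erythroid markers found summed to 37277 and 12750 RPKM, and 1 of them, *Hbb-bh1*, fell past the test. No skeletal muscle or liver marker passed it. Nor did any tested marker of the sinus node and conduction system (8 tested), endothelium (8), fibroblasts and mural cells (8), epicardium (6), Schwann cells (2) or macrophages (7). Of 4 neuronal markers tested, *Tubb3* passed (log2 fold change 0.65, adjusted *P* = 0.0086 by limma), while *Th* and *Dbh*, which mark sympathetic neurons, stayed at or below 0.23 RPKM.

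No potassium channel gene passed the test between genotypes. Adjusted *P* values by limma, with Benjamini-Hochberg adjustment over all rows above 1 RPKM, were between 0.056 and 0.983 for the 37 genes. Over all 14657 genes tested, 336 (2.29%) passed, with 280 (1.91%) higher and 56 (0.382%) lower in *Dio3*-/- hearts. That split is 83.3% higher, and 71.7% (129 higher and 51 lower) with both genotypes centered on the median log2 ratio. At an unadjusted *P* under 0.05, 11 of the 37 (29.7%) were counted, 9 higher and 2 lower, against 19.7% of all genes, 15.2% higher and 4.46% lower. A test of each gene by itself, without moderation, also gave 0 of 37, where it called 0.177% of all genes. In 3 other settings 1 channel gene passed. They were *Kcnd2* without the mean-variance trend (adjusted *P* = 0.024 by limma, with 1.71% of all genes called), *Kcnh2* among genes averaging above 5 RPKM (adjusted *P* = 0.049 by limma, 3.76% called) and *Kcnh3* without an expression filter (adjusted *P* = 0.038 by limma, 0.794% called). Among all 71 tested rows of these genes, which include their other transcripts, none had an adjusted *P* value under 0.05.

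The differences were small. The mean was higher in *Dio3*-/- hearts for 27 of 37 genes (73.0%) and lower for 10, against 63.3% higher over all genes tested. The median log2 fold change was 0.13, against 0.04 over all genes, on the log2(RPKM + 0.5) scale, where differences of genes near 1 RPKM come out smaller than their ratio. The range ran from -0.46 (*Kcnk1*) to 0.42 (*Kcnh2*), and 1 gene, *Kcnk1*, had a ratio of means beyond 1.5-fold. The 95% intervals of 26 genes lay wholly inside a 1.5-fold change of RPKM + 0.5 in either direction, which is a larger change in RPKM itself. Those of 26 genes included 0. In this whole-organ RNA, fewer cells of a type and less RNA per cell cannot be told apart. The part that cell composition, age and sex had in these differences was not tested.

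**Figure D1:**
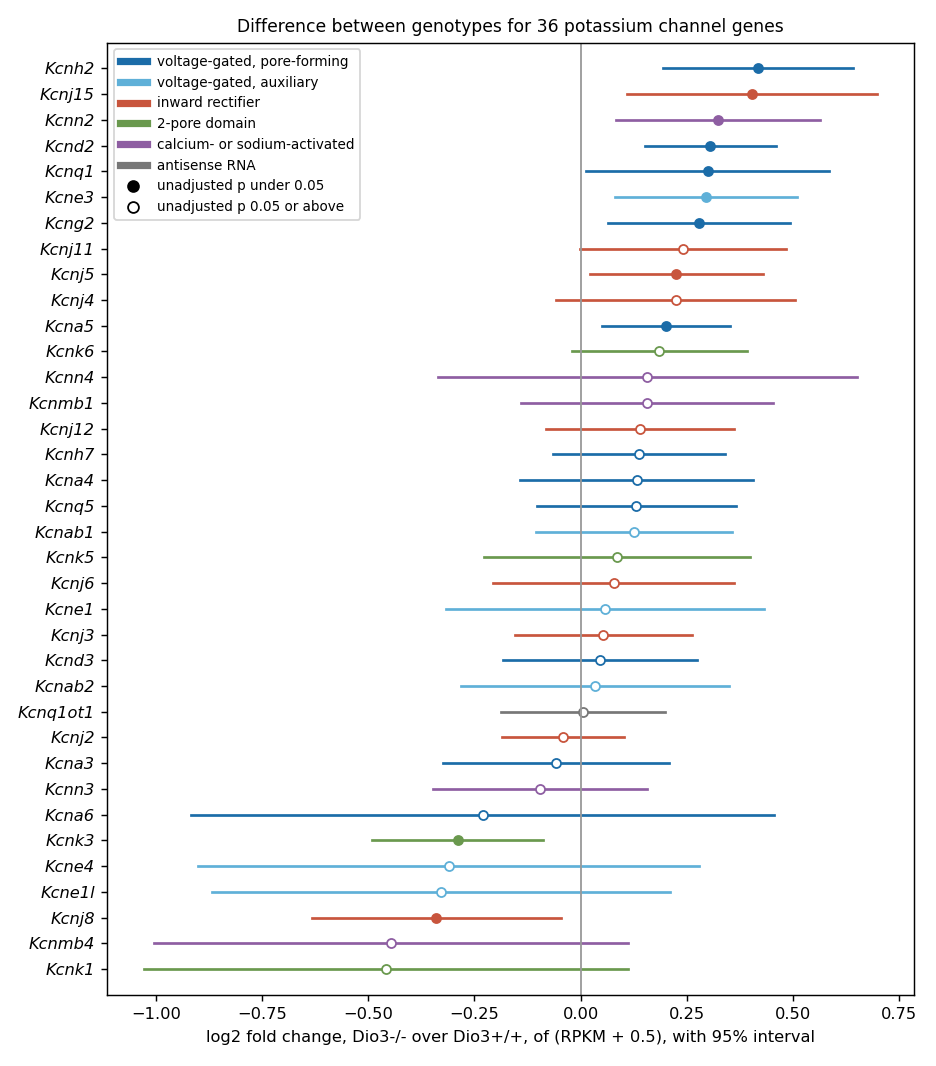
Log2 fold change of 36 potassium channel genes, *Dio3*-/- over *Dio3*+/+, on the log2(RPKM + 0.5) scale, with the 95% interval from limma as a line and the type of channel as color. Filled points have an unadjusted *P* under 0.05 (11 genes), no gene has an adjusted *P* under 0.05, and the points run from -0.46 for *Kcnk1* to 0.42 for *Kcnh2*.

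The overlap of single hearts can be bounded from the summaries. With 4 hearts, no heart can lie more than 1.5 SD from its mean, so for some genes the genotypes cannot overlap. This bound, chosen after the data were seen, held for 1 of the 37 genes (*Kcnd2*) and for 3.86% of all genes tested. For the 36 other genes tested, overlap between single hearts remained possible. Of the 58 members not above 1 RPKM, the bound held for 2, *Kcnf1* and *Kcnh3*. The share over all genes at such levels was not calculated, so this count has nothing to be set against.

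The summed level of all 95 genes was 197.95 RPKM in *Dio3*+/+ hearts and 216.46 RPKM in those without *Dio3*, a difference of 9.35%. The 5 highest genes (*Kcnh2*, *Kcng2*, *Kcnk3*, *Kcnj5* and *Kcne1*) held 44.7% of it in *Dio3*+/+ and 46.7% in *Dio3*-/- hearts. *Kcnh2* alone held 12.8% and 15.7%. These are moderate levels for a heart transcript, since 2538 genes had a higher average than *Kcnh2*. Of the 37, 13 averaged above 5 RPKM.

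**Figure D2:**
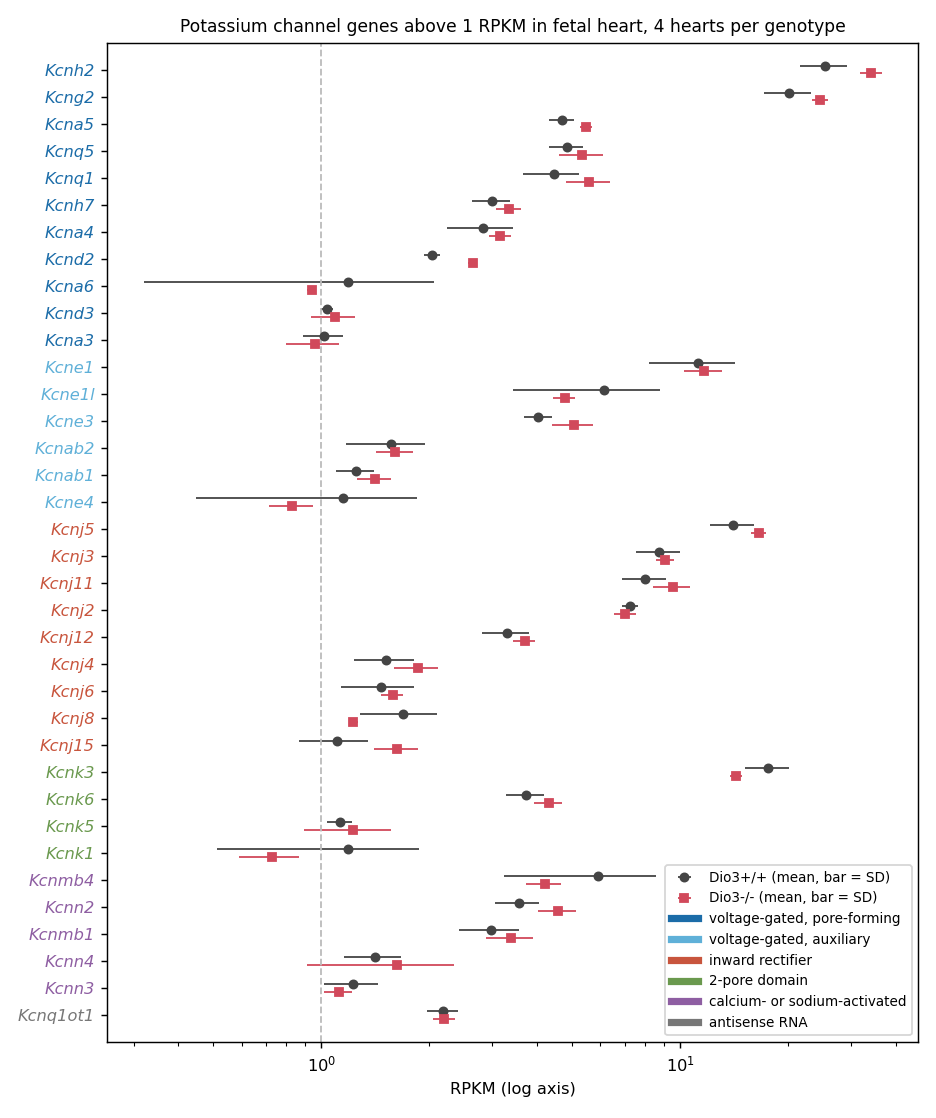
Mean level (RPKM, logarithmic axis) of 36 potassium channel genes in 4 *Dio3*+/+ (circles) and 4 *Dio3*-/- (squares) hearts, with the SD as a bar and the genes grouped by type of channel. The dashed line marks 1 RPKM. *Kcnh2* is the highest in both genotypes, at 25.36 and 34.04 RPKM.

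Delayed rectifiers repolarize the action potential. The pore genes *Kcnh2*, *Kcnq1* and *Kcna5* of such currents had higher means in *Dio3*-/- hearts, whereas the Kv1 pore genes *Kcna3* and *Kcna6*, given further on, had lower ones. *Kcnh2*, the pore of the rapid delayed rectifier current, averaged 25.36 ± 3.80 RPKM (SD, n = 4) in *Dio3*+/+ hearts and 34.04 ± 2.38 RPKM in *Dio3*-/- hearts, and values below follow the same order. Its log2 fold change was 0.42 (SE, the standard error, 0.10, 95% interval 0.19 to 0.64), the highest of the 37, with an adjusted *P* of 0.063 by limma. Its other row, at 23.25 and 31.93 RPKM, did not pass either (adjusted *P* = 0.0507 by limma). The bounds of single hearts, up to 31.3 RPKM in *Dio3*+/+ and down to 30.2 RPKM in *Dio3*-/- hearts, left a narrow overlap possible.

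*Kcnq1*, the pore of the slow delayed rectifier, had means of 4.44 ± 0.80 and 5.58 ± 0.78 RPKM (log2 fold change 0.30, SE 0.13, adjusted *P* = 0.245 by limma). *Kcne1*, its auxiliary subunit minK, had 11.20 ± 3.02 and 11.67 ± 1.40 RPKM (log2 fold change 0.06, SE 0.17, adjusted *P* = 0.893 by limma). The interval for *Kcne1*, -0.32 to 0.43, is wide, with a CV of 0.27 among *Dio3*+/+ hearts. *Kcna5*, the Kv1.5 pore of an ultrarapid current, was measured more tightly, at 4.70 ± 0.38 and 5.48 ± 0.22 RPKM, and had a log2 fold change of 0.20 (SE 0.07, adjusted *P* = 0.142 by limma).

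*Kcng2* encodes a subunit that carries no current alone and modifies other voltage-gated channels. It was the second highest gene, at 20.16 ± 3.02 and 24.58 ± 1.23 RPKM, with a log2 fold change of 0.28 (SE 0.10, adjusted *P* = 0.152 by limma). The exons of *Kcng2* and of 16 other tested members, *Kcnq1* and *Kcnq1ot1* among them, overlap antisense transcripts in the GENCODE M21 annotation. Whether reads were counted by strand is not given in the sources used here, so the reads of such pairs may not be separated.

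The transient outward current makes the early notch of the action potential and has Kv4.2 (*Kcnd2*), Kv4.3 (*Kcnd3*) and Kv1.4 (*Kcna4*) pores. *Kcnd2* had means of 2.04 ± 0.10 and 2.64 ± 0.08 RPKM (log2 fold change 0.31, SE 0.07, 95% interval 0.15 to 0.46). Its adjusted *P* of 0.056 by limma was the lowest of the 37. No *Dio3*+/+ heart can exceed 2.21 RPKM and no *Dio3*-/- heart can lie below 2.50 RPKM, so the genotypes do not overlap for this gene. *Kcnd3* had 1.04 ± 0.04 and 1.09 ± 0.15 RPKM (log2 fold change 0.05, SE 0.10, adjusted *P* = 0.856 by limma). *Kcna4* had 2.83 ± 0.59 and 3.15 ± 0.22 RPKM (log2 fold change 0.13), higher in *Dio3*-/- hearts by less than its spread.

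*Kcnip2* encodes KChIP2, the calcium-binding auxiliary subunit of Kv4 channels. It stayed below 1 RPKM, at 0.34 ± 0.10 in *Dio3*+/+ and 0.80 ± 0.36 in *Dio3*-/- hearts, and was tested only in the fit without an expression filter (log2 fold change 0.63, SE 0.19, adjusted *P* = 0.155 by limma). The *Dio3*-/- hearts differed among themselves for this gene (CV 0.45), and its 3 other rows gave means of 0.30 to 0.32 and 0.69 to 0.77 RPKM. The peptidase-like Kv4 partner *Dpp6* had 3.68 and 3.25 RPKM (log2 fold change -0.16, adjusted *P* = 0.573 by limma).

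The other voltage-gated pores gave no larger difference. *Kcnq5*, a Kv7 channel of smooth muscle and neurons, had 4.83 ± 0.53 and 5.34 ± 0.75 RPKM in its highest row (log2 fold change 0.13). Its 2 other rows were tighter, at 4.15 and 4.98 and at 4.11 and 4.93 RPKM (log2 fold change 0.24 in both, adjusted *P* = 0.0987 and 0.0999 by limma). *Kcnh7*, a relative of *Kcnh2*, had 2.99 ± 0.36 and 3.34 ± 0.27 RPKM. The Kv1 gene *Kcna3* had 1.02 ± 0.13 and 0.96 ± 0.16 RPKM, and *Kcna6* had 1.19 ± 0.87 and 0.94 ± 0.03 RPKM, the widest spread of any member tested (CV 0.73 in *Dio3*+/+ hearts). In all, 12 tested genes were grouped as voltage-gated pores, *Kcng2* included although it carries no current alone. Of the 12, 10 had the higher mean in *Dio3*-/- hearts, and 5, *Kcng2* among them, had an unadjusted *P* under 0.05 by limma, all higher. Over all genes tested, these shares were 63.3% for a higher mean and 15.2% for an unadjusted *P* under 0.05 with a higher mean.

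The auxiliary subunits of voltage-gated channels were split. *Kcne3*, a single-span subunit that holds Kcnq1 channels open, had 4.03 ± 0.36 and 5.06 ± 0.66 RPKM (log2 fold change 0.30, adjusted *P* = 0.135 by limma). Its X-linked relative *Kcne1l*, now called *Kcne5*, had 6.12 ± 2.69 and 4.77 ± 0.33 RPKM, and *Kcne4* had 1.15 ± 0.70 and 0.83 ± 0.12 RPKM. Both of these lower means came with a wide spread among *Dio3*+/+ hearts (CV 0.44 and 0.61). The Kv1 beta subunits *Kcnab1* (1.25 ± 0.15 and 1.41 ± 0.16 RPKM) and *Kcnab2* (1.56 ± 0.39 and 1.61 ± 0.19 RPKM) had intervals that included 0.

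Of the inward rectifiers that hold the resting potential, *Kcnj2* (Kir2.1) was the most abundant and the closest between genotypes. It had 7.26 ± 0.36 and 7.04 ± 0.49 RPKM (log2 fold change -0.04, SE 0.06, adjusted *P* = 0.780 by limma), and its interval of -0.18 to 0.10 limits any difference to a small one. *Kcnj12* (Kir2.2) had 3.30 ± 0.50 and 3.69 ± 0.26 RPKM and *Kcnj4* (Kir2.3) had 1.52 ± 0.29 and 1.86 ± 0.26 RPKM.

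*Kcnj3* and *Kcnj5* encode both subunits of the atrial acetylcholine-activated channel, which slows the heart on vagal stimulation. *Kcnj5* had 14.07 ± 1.97 and 16.54 ± 0.83 RPKM (log2 fold change 0.23, SE 0.09, adjusted *P* = 0.217 by limma), and *Kcnj3* had 8.74 ± 1.22 and 9.09 ± 0.55 RPKM (log2 fold change 0.05, SE 0.09, adjusted *P* = 0.809 by limma). *Kcnj6*, a related subunit best known from neurons, had 1.47 ± 0.34 and 1.58 ± 0.11 RPKM. The receptor upstream of this channel, *Chrm2*, which encodes the M2 muscarinic receptor, did pass the test. It rose from 5.89 (CV 0.12) to 8.43 RPKM (CV 0.06), with 0.48 as log2 fold change (SE 0.08, adjusted *P* = 0.023 by limma).

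The pores of the ATP-sensitive channel, which couples membrane potential to metabolism, had opposite signs. *Kcnj11* (Kir6.2), the pore of heart muscle, had 7.99 ± 1.12 and 9.54 ± 1.14 RPKM (log2 fold change 0.24, SE 0.11, adjusted *P* = 0.269 by limma). *Kcnj8* (Kir6.1), best known from vascular smooth muscle, had 1.69 ± 0.41 and 1.23 ± 0.04 RPKM (log2 fold change -0.34, SE 0.13, adjusted *P* = 0.201 by limma). Neither passed, and the difference between them was not tested.

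Their regulatory subunits, the sulfonylurea receptors, gave larger differences. *Abcc9* (SUR2) rose from 19.31 (CV 0.11) to 30.57 RPKM (CV 0.07), with 0.65 as log2 fold change (SE 0.08, adjusted *P* = 0.0060 by limma), and its genotypes cannot overlap. *Abcc8* (SUR1) had 2.11 and 3.36 RPKM (log2 fold change 0.56, adjusted *P* = 0.065 by limma). *Abcc9* is the protein-coding neighbor of *Kcnj8* on chromosome 6, and *Abcc8* that of *Kcnj11* on chromosome 7, in GENCODE M21 on GRCm38, so the pair on chromosome 6 had a log2 fold change of 0.65 beside one of -0.34.

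*Kcnj15* (Kir4.2), a channel with no established cardiac current, had 1.11 ± 0.24 and 1.63 ± 0.23 RPKM. Its log2 fold change of 0.40 (SE 0.13, adjusted *P* = 0.136 by limma) was the second highest, and its 8 rows gave nearly the same values.

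Only 4 of 14 genes of 2-pore domain channels were above 1 RPKM, and they were split 2 and 2. *Kcnk3* (TASK-1), an acid-sensitive background channel of atrial muscle, was the third highest gene overall. It had 17.61 ± 2.47 and 14.32 ± 0.57 RPKM (log2 fold change -0.29, SE 0.09, 95% interval -0.49 to -0.09, adjusted *P* = 0.121 by limma). It is the one member above 10 RPKM with the lower mean in *Dio3*-/- hearts. *Kcnk6* (TWIK-2) had 3.72 ± 0.45 and 4.30 ± 0.39 RPKM, *Kcnk5* (TASK-2) had 1.13 ± 0.09 and 1.23 ± 0.33 RPKM, and *Kcnk1* (TWIK-1) had 1.19 ± 0.68 and 0.73 ± 0.14 RPKM, the last with a CV of 0.57 among *Dio3*+/+ hearts.

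Of the calcium-activated channels, *Kcnn2* (SK2), a small-conductance channel of atrial muscle, had 3.55 ± 0.50 and 4.57 ± 0.55 RPKM (log2 fold change 0.32, SE 0.11, adjusted *P* = 0.141 by limma). All 4 of its rows had the higher mean in *Dio3*-/- hearts, with adjusted *P* values by limma down to 0.079. *Kcnn3* (SK3) had 1.23 ± 0.21 and 1.12 ± 0.10 RPKM. *Kcnn4*, the intermediate-conductance channel known from red blood cells, had 1.41 ± 0.25 and 1.63 ± 0.72 RPKM, the one tested member with a CV above 0.4 among *Dio3*-/- hearts (0.44).

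The large-conductance channel was represented by its auxiliary subunits more than by its pore. *Kcnmb4* had 5.89 ± 2.65 and 4.19 ± 0.46 RPKM and *Kcnmb1*, the smooth muscle subunit, had 2.98 ± 0.57 and 3.38 ± 0.51 RPKM, whereas the pore *Kcnma1* had 0.66 ± 0.62 and 0.29 ± 0.04 RPKM. *Kcnmb4* and *Kcnma1* both had wide spreads among *Dio3*+/+ hearts (CV 0.45 and 0.94). The antisense RNA *Kcnq1ot1* had 2.19 ± 0.22 and 2.20 ± 0.15 RPKM, the smallest difference of the 37.

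Spread between hearts differed by genotype. The CV was larger in *Dio3*+/+ hearts for 30 of the 37 genes, with medians of 0.15 and 0.11, against 65.4% of all genes tested and medians of 0.09 and 0.06. A CV above 0.4 in *Dio3*+/+ hearts was found for 5 members (*Kcne1l*, *Kcnmb4*, *Kcna6*, *Kcne4* and *Kcnk1*), against 3.90% of all genes, and in *Dio3*-/- hearts for *Kcnn4* alone, against 1.62%. All 5 members had the lower mean in *Dio3*-/- hearts, as did 503 of the 571 such genes over the whole table (88.1%). Of the 5, *Kcna6*, *Kcne4* and *Kcnk1* passed the limit of 1 RPKM in *Dio3*+/+ hearts only, which fixed their direction in advance. Choosing genes by a high CV in *Dio3*+/+ hearts also favors those whose mean there is raised by a single heart. The shared direction is therefore no result about the members. Among the 31 members with no CV above 0.4, 26 had the higher mean in *Dio3*-/- hearts. These 31 leave out the 5 members above, all lower, and *Kcnn4*, which was higher. The share over all genes under the same rule was not calculated, so this count has nothing to be set against. Of the 7 skeletal muscle markers, 5 (*Myod1*, *Myog*, *Myf5*, *Pax7* and *Myh3*) also had a lower mean in *Dio3*-/- hearts and a CV among *Dio3*+/+ hearts above 0.4, between 1.54 and 1.62. The other 2 did not, with *Actn3* at 1.65 (CV 0.38) and 2.04 RPKM and *Myh8* at 3.79 (CV 0.29) and 3.26 RPKM. The part of such tissue in the spread of the channel genes was not tested.

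**Figure D3:**
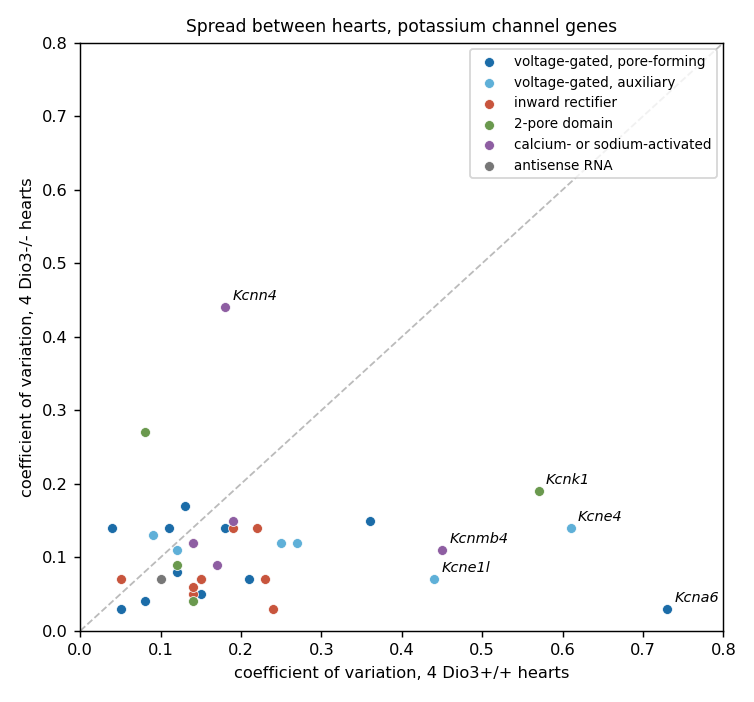
Coefficient of variation (SD divided by mean) of each of the 37 potassium channel genes among the 4 *Dio3*+/+ hearts (x axis) and the 4 *Dio3*-/- hearts (y axis), with color for the type of channel and the diagonal dashed. Most points (30 of 37) lie below the diagonal, and the 6 named genes have a coefficient above 0.4 in a genotype.

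The other 58 potassium channel genes were not above 1 RPKM, and 25 of the 95 were below 0.1 RPKM in both genotypes. Near the limit, *Kcna3* (1.02 RPKM in its higher genotype) and *Kcnd3* (1.09 RPKM) lay inside it, and just outside it were *Kcnq3* (0.99 and 0.96 RPKM) and *Kcnt2* (0.80 and 0.88 RPKM). *Kcnn1* (0.66 and 0.67 RPKM), *Kcnip3* (0.73 and 0.60 RPKM) and *Kcnd1* (0.66 RPKM in both) followed. *Kcna6*, *Kcne4*, *Kcna3* and *Kcnk1* passed the limit in *Dio3*+/+ hearts only.

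Without an expression filter, 93 members could be tested and 1 passed, against 0.794% of all genes in that fit. *Kcnh3*, a relative of *Kcnh2* best known from brain, had 0.46 ± 0.10 and 0.17 ± 0.05 RPKM (log2 fold change -0.52, SE 0.09, adjusted *P* = 0.038 by limma), and its second row had 0.30 and 0.11 RPKM. *Kcnf1*, which encodes a subunit that is silent alone and was singled out after its values were seen, had 0.26 ± 0.05 and 0.50 ± 0.09 RPKM (adjusted *P* = 0.071 by limma). At such levels the table's rounding to 2 decimals and the pseudocount weigh on each value.

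**Figure D4:**
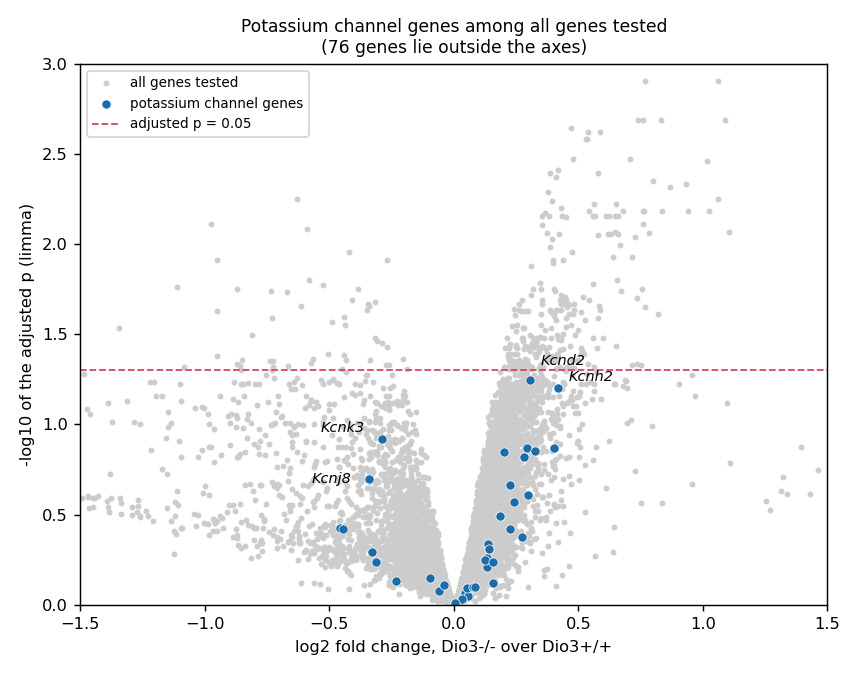
Log2 fold change (x axis) against the negative log10 of the adjusted *P* by limma (y axis) for all 14657 genes tested (gray, 76 outside the axes) and the 37 potassium channel genes (blue). All blue points lie under the dashed line of an adjusted *P* of 0.05, with *Kcnd2* (0.056) and *Kcnh2* (0.063) the nearest to it.

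Genes that work with potassium channels were listed by role, and 41 of the 46 listed were above 1 RPKM. Of these 41, 5 passed the test, all higher in *Dio3*-/- hearts, against 2.29% of all genes passing and 1.91% passing higher. The median log2 fold change of the 41 was 0.13, and the list was drawn up with earlier results of these data known. Besides *Abcc9* and *Chrm2*, they were *Ank3*, an ankyrin that anchors channels to the cytoskeleton (21.80 to 29.52 RPKM, log2 fold change 0.43, adjusted *P* = 0.0063 by limma), *Tmem38a*, a counter-ion channel of the sarcoplasmic reticulum (21.01 to 27.56 RPKM, 0.38, adjusted *P* = 0.042), and *Slc12a4*, a potassium-chloride cotransporter (13.27 to 15.56 RPKM, 0.22, adjusted *P* = 0.038). None of the 5 passed without moderation, and *Tmem38a* and *Slc12a4* did not pass after centering (adjusted *P* = 0.071 and 0.084 by limma). The study's own list of differentially expressed genes holds *Abcc9*, *Chrm2*, *Ank3* and *Slc12a4* and does not hold *Tmem38a*. That list also holds the channel gene *Kcnd2*, which did not pass the test used here.

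By role, 1 of 2 sulfonylurea receptors, 1 of 2 sarcoplasmic reticulum channels, 1 of 13 scaffold and trafficking genes, 1 of 8 genes of the acetylcholine-activated current and 1 of 7 pump and cotransporter genes passed. *Atp1b1* (198.46 and 247.90 RPKM, log2 fold change 0.32), a subunit of the pump that restores the potassium gradient, did not (adjusted *P* = 0.089 by limma). None of 7 transcription factors that act on potassium channel genes passed, among them *Irx5* (9.64 and 9.76 RPKM), a repressor of *Kcnd2* across the ventricular wall.

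**Figure D5:**
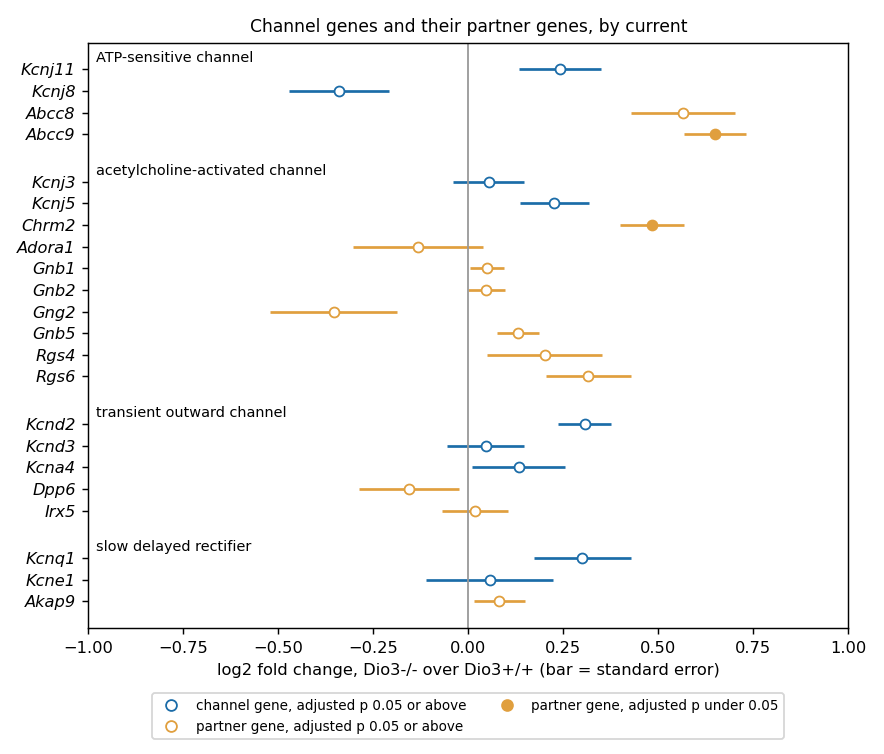
Log2 fold change, *Dio3*-/- over *Dio3*+/+, of channel genes (blue) and partner genes (orange) for 4 cardiac potassium currents, with the SE as a bar. Filled points have an adjusted *P* under 0.05 by limma, which holds for *Abcc9* (0.65) and *Chrm2* (0.48) and for none of the channel genes shown.

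Promoters were read from RefSeq (GRCm38.p6, 250 bases before to 50 after the start), and 29 of the 37 tested members matched. The nuclear receptor half-site AGGTCA, searched on both strands, was in 0 of their 36 windows and in 16.3% of all promoter windows. Over tested and untested members, 6 of the 70 with a RefSeq promoter had it, against 18.1% of all genes. The match is a description of these letters in these windows and says nothing of receptor binding.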

How the data were processed

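RNA of 4 *Dio3*+/+ and 4 *Dio3*-/- fetal hearts was depleted of ribosomal RNA, primed at random and sequenced single-end on an Illumina HiSeq instrument. The authors and a sequencing company checked reads with FastQC, aligned them with Novoalign 2.08, kept uniquely mapping reads and scaled each sample to the one with the fewest. The genome build and the use of strand are not given in the sources used here. The authors deposited 51414 rows of UCSC known-gene transcripts with a mean per genotype, read here as RPKM because the Methods filter in that unit, and a coefficient of variation, the SD as a ratio to the mean. Their fold change and q value columns were not used. Single hearts and read totals are not part of the table, so the depth behind each value, which the Methods give as a range of aligned reads, cannot be read from it.

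Groups came from the genotype label. For each row, log2(mean + 0.5) was compared between genotypes with an SD approximated from the coefficient of variation. The variance (6 residual degrees of freedom, plus 3.52 prior ones) was moderated with limma 3.58.1 in R 4.3.3 with a mean-variance trend, and *P* values were adjusted by Benjamini-Hochberg over the 32703 rows above 1 RPKM in at least 1 genotype. Log-scale SDs are least reliable at high coefficients of variation. The procedure was tested on simulated data. Tables were made with Python 3.11.15, pandas 2.3.3 and numpy 2.4.6. Of the 37 members above 1 RPKM, 36 are named and 1 is not reported here, with the SE and adjusted *P* for the highest 5 and for *Kcnd2*, *Kcnd3*, *Kcnip2*, *Kcna5*, *Kcnq1*, *Kcnj2*, *Kcnj3* and *Kcnj11*. Of members not above 1 RPKM, the 5 with the highest average are named. Members and lists were chosen with earlier results of these data known. Alternatives were pseudocounts of 0.1 and 1, no filter, an average above 5 RPKM, no trend, 1 row per gene, any row of a gene, Welch's test, centering, and coefficients of variation raised by 0.005.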

Additional observations from a re-analysis of the deposited data

How the results depend on the processing

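The number of potassium channel genes past the test, 0, became 1 without an expression filter (*Kcnh3*, lower), 1 with an average above 5 RPKM (*Kcnh2*, higher, adjusted *P* = 0.049 by limma, with 13 members tested) and 1 without the mean-variance trend (*Kcnd2*, higher, adjusted *P* = 0.024 by limma). It stayed 0 with both other pseudocounts, 1 row per gene, any row of a gene, Welch's test, centering and raised coefficients of variation. Over the alternatives the adjusted *P* ran from 0.024 to 0.101 for *Kcnd2*, 0.049 to 0.193 for *Kcnh2* and 0.095 to 0.365 for *Kcnk3*. The cause of these differences was not tested. The number of partner genes past the test, 5, became 4 without a filter (*Tmem38a* lost), 3 without the trend, 3 after centering, 3 with raised coefficients of variation and 0 with Welch's test. In each of the 3 settings that left 3, the genes lost were *Tmem38a* and *Slc12a4*. The log2 fold changes of single members kept their sign in all but 2 cases, *Kcnab2* (-0.00328) and *Kcnq1ot1* (-0.03253), which turned negative after centering, a shift of 0.04 that applies to every gene. The median over members ran from 0.09 to 0.15. Over all genes tested, 336 passed, against 197 without a filter, 382 of 10160 with an average above 5 RPKM, 250 without the trend, 180 after centering, 187 with raised coefficients of variation and 26 with Welch's test.

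No paired analysis was possible because the columns are genotype means that carry no replicate number. Leaving out a heart was not possible for the same reason, so the weight of any single heart, *Dio3*-/- hearts 3 and 4 included, is unknown. The *P* values set the difference between genotypes against the spread between hearts within a genotype and take the hearts as independent. The labels do not say whether hearts shared a litter, so that independence could not be checked.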
